A study of Arabidopsis thaliana with 12 samples.

Results

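AT5G19120 is an Arabidopsis thaliana gene on chromosome 5 that encodes a member of the aspartyl protease family, and it is described here across the roots and shoots of seedlings that carry an estradiol-inducible CLE2 gene. It was chosen by its measured log2 difference between estradiol and DMSO shoots, the largest among the genes called higher there. It is 1 gene of 16550 tested and has 1 of the 16722 probe sets that are paired with a single gene. Its estradiol effect in shoots is therefore given as a description, with no test.

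The labels name 4 groups of 3 arrays, all from seedlings of the inducible line, grown at 22 °C for 7 days. Root DMSO and Shoot DMSO are the organs of seedlings whose roots received the solvent DMSO, and Root Est and Shoot Est those of seedlings whose roots received β-estradiol, labelled as 5 mM, for 24 h. The labels' protocol text gives this dose for all 12 samples, only titles, source names and treatment tags separate DMSO from estradiol, and the dose could not be checked. The series looked for genes that act downstream of CLE2, a small secreted signalling peptide gene. Every group carries the inducible CLE2 gene, and no seedlings without it were treated, so CLE2 induction and any direct action of estradiol cannot be told apart. CLE2 has no probe set paired with it here, and its induction was not analysed here. For the inducible system, the promoter and the number of lines are not stated in the labels. Separate cultures are not mentioned for the replicates, and p-values cover the spread of these arrays alone, part of which may be technical.

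Pepsin-type aspartyl proteases cut proteins at an active site built on aspartate residues, and plants hold a large family of them. Most carry a signal that sends them to the cell exterior or to the vacuole, and some act in pathogen defence, in cell survival and in reproduction. A group that includes AT5G19120 and the adjacent genes AT5G19100 and AT5G19110 resembles carrot extracellular dermal glycoprotein and the cereal xylanase inhibitors, proteins of this fold that bind enzymes of microbial origin. No protein or promoter sequence of these genes was used here.

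The organ labels were checked with marker genes. All 10 measured photosynthesis genes were higher in shoots than in roots and all 7 measured root genes were lower (limma, adjusted p under 0.05, over both treatments). Of all genes, 34% were higher and 30.3% lower by this measure. Between treatments 0 of either list passed the threshold, where 0.163% of all genes passed in shoots and 0% in roots. The marker lists hold 61 and 51 genes, most without a probe set of their own. The correlation of any pair of arrays within a group was at least 0.986 over the genes tested, and array medians over all probe sets lay between 5.40 and 5.55 (log2 signal).

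In DMSO shoots AT5G19120 had log2 signals of 7.05, 6.70 and 6.45 on replicates 1, 2 and 3. In estradiol shoots it had 8.09, 8.02 and 8.02. The DMSO arrays were thus the lowest of the series and widely spread, whereas the 3 estradiol arrays were nearly identical, and the groups did not overlap. All 3 estradiol arrays lay above all 3 DMSO arrays for 6.85% of all genes.

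The shoot means were 6.73 ± 0.30 under DMSO and 8.04 ± 0.04 under estradiol (log2 signal, SD, n = 3), a difference of 1.31 ± 0.18 (SE) or 2.48-fold. The smallest gap between an estradiol and a DMSO array was 0.97 and the largest 1.64. Of all genes, 77.3% had a smaller SD than AT5G19120 among the DMSO shoot arrays, and only 6.49% had a smaller one among the estradiol shoot arrays. The difference between the shoot groups thus joins a group of wide and a group of very narrow spread. The fit used a single spread for all groups, and the gene's own residual SD of 0.233 was drawn to 0.216 by the spread of the other genes.

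In roots AT5G19120 was at 7.75, 7.50 and 7.35 under DMSO. Under estradiol it was at 8.32, 7.93 and 7.75. The highest single value of all 12 arrays is therefore that of an estradiol root. The lowest estradiol root lay above the highest DMSO root by only 0.00135, so the groups touch without overlapping. Over all genes, 5.29% had all 3 estradiol roots above all 3 DMSO roots.

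The root means were 7.54 ± 0.20 and 8.00 ± 0.29 (log2 signal, SD, n = 3). The difference of 0.46 ± 0.18 (SE), or 1.38-fold, did not pass the threshold over all genes (limma, adjusted p = 0.940, unadjusted p = 0.0234). Its 95% confidence interval, not adjusted for the number of genes, ran from 0.08 to 0.85 log2 units. The root difference uses no array of the shoot contrast, but its SE comes from the spread that also entered the shoot call which chose the gene. That call was lost without DMSO root replicate 2 or 3 or estradiol root replicate 2, so the root test is not fully independent of the choice. In the same comparison 0 of 16550 genes passed the threshold, or 0%, and 855 had an unadjusted p under 0.05. Without estradiol root replicate 1 the difference was 0.30, and whichever single array was left out, it did not pass the threshold. The shoot difference exceeded the root difference by 0.84 log2 units. That gap contains the shoot contrast for which the gene was chosen and was not tested.

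**Figure D1:**
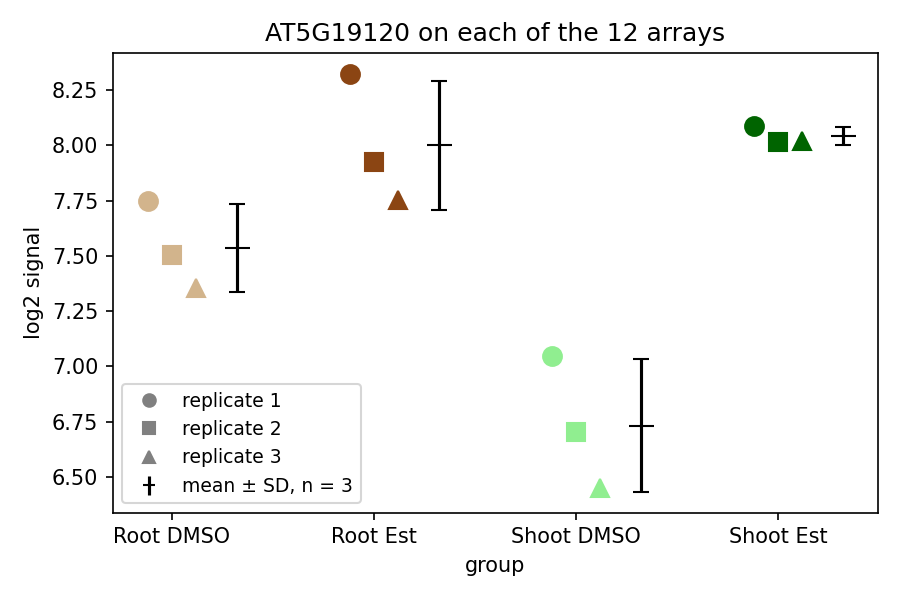
Log2 signal of AT5G19120 (vertical axis) on each array of the 4 groups (horizontal axis); symbols mark the replicate number and the black bars give the mean ± SD (n = 3). The 3 DMSO shoots, from 6.45 to 7.05, lie below the other 9 arrays, which run from 7.35 to 8.32.

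The 4 group means, from the lowest, ran from DMSO shoots at 6.73 through DMSO roots at 7.54 and estradiol roots at 8.00 to estradiol shoots at 8.04. Estradiol roots and estradiol shoots differed by 0.04 log2 units, far less than the SD of 0.29 among the estradiol roots, and their arrays overlapped. DMSO roots and estradiol roots did not differ beyond the tested threshold. DMSO shoots were apart from DMSO roots, with no overlap and a difference of -0.80 ± 0.18 (SE), which is a description because it reuses the DMSO shoot arrays that entered the choice.

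Over both treatments, the mean of the shoot groups minus the mean of the root groups was -0.38 ± 0.12 (log2, SE). This is a description too, because it reuses the shoot arrays that chose the gene and their spread was unequal, with SDs of 0.30 and 0.04. By the same measure 64.3% of all genes were called different between the organs, 34% higher and 30.3% lower in shoots (limma, adjusted p under 0.05). By absolute size its organ difference ranked 8789 of 16550. By the size of the shoot estradiol difference the gene ranked 8, a place all but fixed by the choice. The organ difference of the median gene was 0.11, but 0.00 after quantile normalization and -0.08 among genes above the median level. Under both of these settings more genes were called lower than higher in shoots. The averaged difference rests on DMSO, since under estradiol the organs differed by 0.04 (95% interval -0.35 to 0.43, a description that reuses the estradiol shoot arrays).

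The place of AT5G19120 among the 16722 probe sets paired with a single gene moved with its signal. Counted from the brightest, it ranked 4559, 5257 and 5705 on the 3 DMSO shoots and 2512, 2611 and 2621 on the 3 estradiol shoots. On DMSO roots it ranked 3193, 3607 and 3986, and on estradiol roots 2195, 2859 and 3141. In DMSO shoots it was brighter than 65.9% to 72.7% of these probe sets and in estradiol shoots brighter than 84.3% to 85.0%. A rank places the brightness of a probe set on its own array, and probe sets bind with different strength, so it does not order transcripts by abundance.

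Root marker signal overlapped between DMSO and estradiol shoots, and its part in the shoot difference of AT5G19120 was not tested. The median of the 7 root genes lay between 4.02 and 4.39 (log2 signal) on DMSO shoots and between 3.91 and 4.37 on estradiol shoots. It was between 7.63 and 8.00 on the 6 root arrays. Their summed linear signal was 174 to 204 on DMSO shoots, 186 to 221 on estradiol shoots and 2413 to 3095 on roots. None of the 7 root genes was called between the shoot groups, where 0.163% of all genes were. The median of the 10 photosynthesis genes was between 8.05 and 8.43 on the root arrays, and the array with the highest root level of AT5G19120, estradiol root replicate 1, was at 8.09. Fewer cells of a type and less RNA per cell cannot be told apart in such whole-organ samples.

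The neighbours of AT5G19120 on the chromosome were compared next, because the genes on one side belong to the same group of proteases. AT5G19110, the next gene on that side, was at 4.78, 5.26 and 4.86 on DMSO shoots and at 5.14, 5.01 and 4.91 on estradiol shoots. On DMSO roots it was at 8.88, 8.93 and 8.84 and on estradiol roots at 8.79, 8.71 and 8.72. It was lower in shoots by 3.82 ± 0.09 log2 units (SE; limma, adjusted p = 1.37e-11), with overlapping shoot groups, and its log2 difference between them was 0.05 ± 0.12.

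AT5G19100 had a similar organ pattern, with 5.49 ± 0.20 in DMSO shoots and 7.73 ± 0.02 in DMSO roots (log2 signal, SD, n = 3). Its estradiol differences were 0.13 ± 0.16 in shoots and 0.03 ± 0.16 in roots (SE). On the other side, AT5G19130 was between 8.68 and 8.86 on all shoot arrays and had a shoot difference of 0.01 ± 0.09. AILP1 (AT5G19140), named for its likeness to aluminium-induced proteins, had a shoot difference of 0.25 ± 0.18, and AT5G19151 one of 0.13 ± 0.11. None of these 5 genes passed the threshold for estradiol in either organ, where 0.163% of all genes did in shoots.

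**Figure D2:**
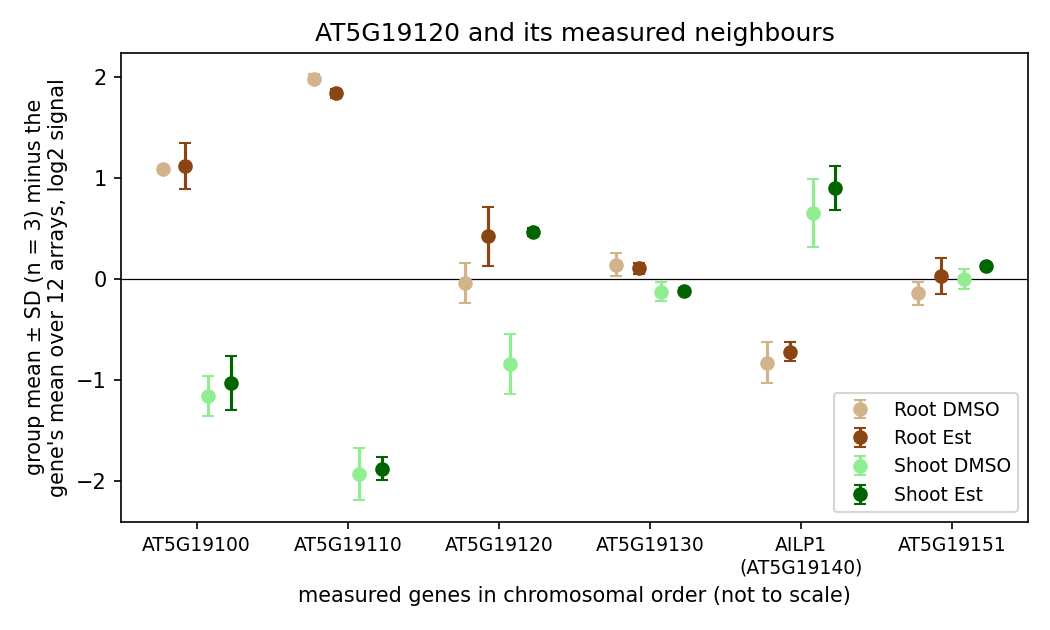
Group means ± SD (n = 3) of AT5G19120 and the 5 measured genes around it, each as log2 signal minus that gene's mean over the 12 arrays (vertical axis), in chromosomal order (horizontal axis, not to scale). AT5G19110 and AT5G19100 separate by organ. AT5G19120 separates most between DMSO and estradiol shoots, at 6.73 and 8.04, the contrast for which it was chosen.

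Further members of the group that resembles dermal glycoprotein are AT1G03220, AT1G03230 and AT5G48430. The first pair are secreted proteases that act against bacteria in leaves. AT1G03230 had a shoot difference of 0.28 ± 0.11 (SE), AT1G03220 one of -0.02 ± 0.14 and AT5G48430 one of -0.18 ± 0.26. In roots the differences were 0.18 ± 0.11, -0.30 ± 0.14 and -0.54 ± 0.26. None passed the threshold. All 3 were lower in shoots than in roots, AT5G48430 by 4.17, AT1G03220 by 2.91 and AT1G03230 by 1.03 log2 units (limma, adjusted p between 2.83e-10 and 2.28e-07). Together with AT5G19100 and AT5G19110, the 5 relatives had organ differences from -4.17 to -1.03, and AT5G19120 had -0.38.

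The wider aspartyl protease family was taken from a list of 70 genes, of which 64 were measured, AT5G19120 included. The list was written from general knowledge of the family, and the membership of AT4G04985 and AT4G17505 is uncertain. Of the 63 other genes, 0 passed the threshold for estradiol in shoots (limma), where 0.163% of all genes passed, 0.133% higher and 0.0302% lower. Their smallest adjusted p was 0.119, and 10 had an unadjusted p under 0.05, against 1647 of the 16550 genes tested. The median shoot difference of the 63 genes was 0.00, and that of all genes was -0.00. AT5G19120 lay outside the range of the others, which was -0.86 to 0.58. It was chosen for this same difference, so its place there was all but fixed by the choice.

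At the upper end of that range, AT2G28220 had a shoot difference of 0.58 ± 0.16 (SE) and AT5G24820 one of 0.50 ± 0.29. Both have dim probe sets, at 2.95 and 2.97 in DMSO shoots (log2 signal). At the lower end stood AT1G69100, at -0.86 ± 0.18, and AT4G30030, at -0.64 ± 0.17. AT1G69100, a dim probe set at 2.65 in DMSO shoots, passed the threshold only without estradiol shoot replicate 2, at -1.13 (limma, adjusted p = 0.0208).

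In roots 0 of the 63 other family genes passed the threshold either (smallest adjusted p = 0.712, limma), and 0% of all genes did. An unadjusted p under 0.05 was found for 2 of them, against 855 of the 16550 genes tested. The root differences of the 63 genes ran from -0.54 to 0.37, so that the 0.46 of AT5G19120 was also the highest of the family there. AT2G28030 had a root difference of 0.37 ± 0.40 (SE) and AT2G28220 one of 0.35 ± 0.16. Both were dim in DMSO roots, at 3.38 and 2.89 (log2 signal). NANA (AT3G12700), a chloroplast aspartyl protease, was at -0.39 ± 0.09 and AT5G48430 had the lowest value. The median was -0.01, as it was over all genes.

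**Figure D3:**
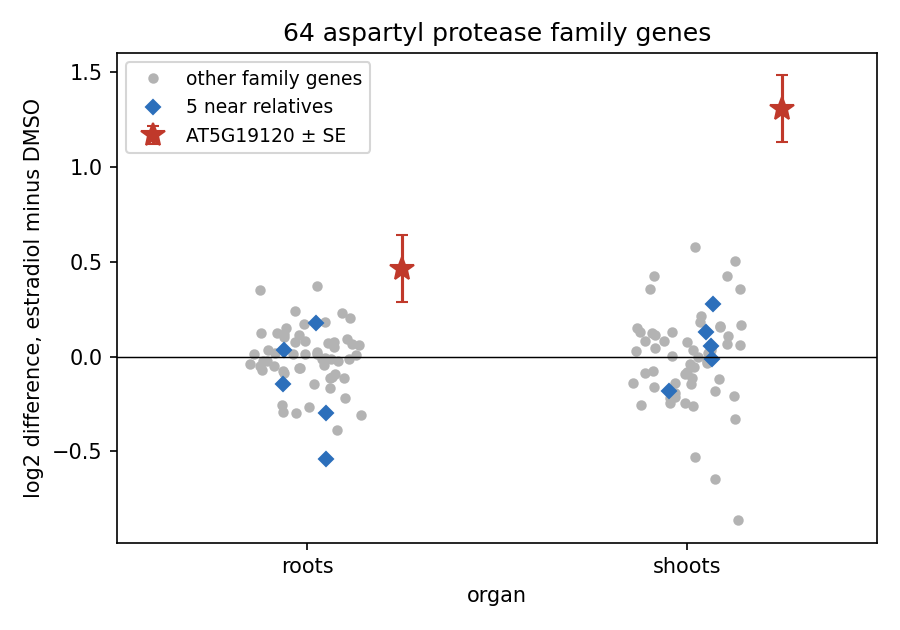
Log2 difference of estradiol minus DMSO (vertical axis) in roots and in shoots (horizontal axis) for the 64 measured aspartyl protease genes; each grey point is a family gene, blue diamonds are the 5 near relatives and the star is AT5G19120 with its SE. AT5G19120 is above the others in both organs, at 0.46 in roots and at 1.31 in shoots, the difference for which it was chosen.

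Between the organs the family varied widely. Of the 63 other genes, 22 were higher and 27 lower in shoots than in roots (limma, adjusted p under 0.05), or 77.8%, against 64.3% of all genes. After quantile normalization the split was 16 higher and 28 lower. Among genes above the median level, where fewer were tested, it was 10 and 23. The lowest in shoots were AT3G51330, at -5.81 ± 0.11 (SE), AT2G03200, at -5.42 ± 0.16, AT3G51360, at -4.43 ± 0.14, and AT5G48430. The highest were AT1G09750, at 3.91 ± 0.07, which encodes an apoplastic protein linked to systemic immunity, AT1G65240, at 1.05 ± 0.14, AT4G22050, at 0.88 ± 0.13, and AT3G59080, at 0.87 ± 0.18. Limma's adjusted p for these 8 genes was at most 0.00123. The organ difference of AT5G19120 was small beside these values. AT1G65240 and AT4G22050 were dim, at 2.89 and 2.68 in DMSO roots and at 3.89 and 3.55 in DMSO shoots (log2 signal).

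The genes of most similar profile were ranked by Pearson correlation with AT5G19120 over the 12 arrays, which share organ and treatment and include the shoot contrast that chose the gene. The 5 highest correlations among 16549 genes were those of AT5G21940 at 0.973, AT3G15450 at 0.963, AT5G60680 at 0.957, AT2G26190 at 0.946 and AT1G27290 at 0.932. AT3G15450 encodes a protein of the aluminium-induced type with YGL and LRDR motifs, AT5G60680 a DUF584 protein and AT2G26190 a calmodulin-binding family protein. Over all genes the median correlation was -0.00, and 7 genes exceeded 0.9.

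AT5G21940, the closest of these, was at 8.65, 8.51 and 8.23 on DMSO shoots and at 9.35, 9.51 and 9.38 on estradiol shoots. On DMSO roots it was at 9.39, 8.99 and 8.86, and on estradiol roots at 9.75, 9.36 and 9.47. DMSO shoots were again the lowest group, and the estradiol groups of both organs overlapped. The group means of AT3G15450 had the order of those of AT5G19120, at 9.13 ± 0.47 in DMSO shoots, 10.03 ± 0.29 in DMSO roots, 10.53 ± 0.37 in estradiol roots and 10.61 ± 0.32 in estradiol shoots (log2 signal, SD, n = 3).

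**Figure D4:**
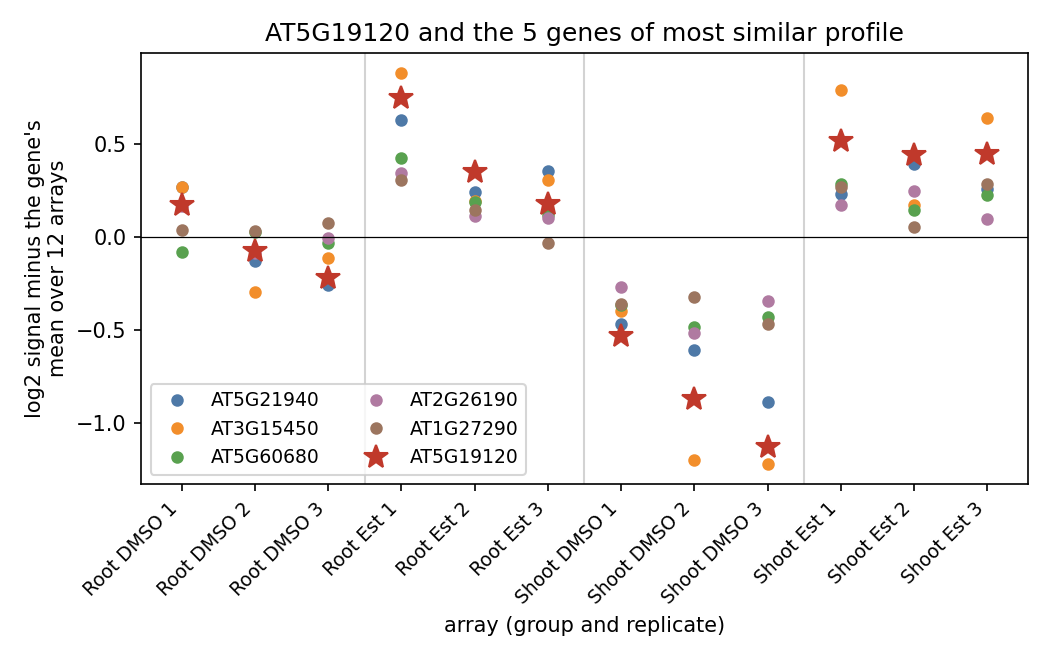
Log2 signal minus each gene's own mean over the 12 arrays (vertical axis) for AT5G19120 and the 5 genes of highest correlation with it, on each array (horizontal axis). All 6 genes are lowest on the 3 DMSO shoots, where AT5G19120 is at 6.45 to 7.05.

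Over the 6 shoot arrays alone, where the contrast that chose the gene dominates, AT1G72820 (correlation 0.993), AT4G05018 (0.992), AT5G32450 (0.991), AT3G07350 (0.990) and AT1G23390 (0.989) were closest, and 217 genes exceeded 0.9. AT3G07350 encodes a DUF506 protein and AT1G23390 a kelch-repeat F-box protein. Over the deviations of the 12 arrays from their group means, which leave the group differences out, the closest were the exocyst subunit gene EXO84B (AT5G49830) at 0.942, LCR34 (AT4G09984) at 0.941, AT4G36550 at 0.934, AT1G68580 at 0.932 and AT1G05450 at 0.925. None of these 5 was among the closest by either other measure, and with 12 points and 16549 genes such values are a description of these arrays. AT5G21940 had a correlation of 0.845 by this measure and AT3G15450 one of 0.812. LCR34 and AT4G05018 have dim probe sets, with group means of 2.34 to 2.47 and of 2.05 to 2.65 (log2 signal).

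The root arrays do not enter the size of the shoot difference, but they do enter the shared spread behind the shoot calls. The profile of AT5G19120 on them was set beside that of the other 21 genes called higher in shoots. Over the 6 root arrays their correlations with AT5G19120 ran from -0.32 to 0.966, with a median of 0.786, and 19 of 21 were above 0, against 49.4% of all genes. Their root differences between estradiol and DMSO ran from -0.11 to 0.63, with a median of 0.29, and 19 of 21 were above 0, against 48.0% of all genes. None of these root differences passed the threshold, and 0% of all genes did in roots. The 21 genes share the 6 root arrays and the shoot call that chose them, so they are not independent observations. The correlations also include the fall of AT5G19120 from replicate 1 to replicate 3 within both root groups.

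The order of the genes called higher in shoots shows how close the choice was. After AT5G19120 at 1.31 came AT2G20670 at 1.28, AT3G07350 at 1.22, AT5G18130 at 1.20 and AT1G36060 at 1.18, each with an SE between 0.14 and 0.20. In all, 7 genes had a larger shoot difference than AT5G19120, from 1.33 to 1.76, and were not called; their SEs lay between 0.26 and 0.40. AT3G15450 was one of them, at 1.47 ± 0.27. The call of AT5G19120 itself was lost in 8 of the 12 fits that left out a single array, and its shoot difference stayed between 1.17 and 1.47 in them. With the 6 shoot arrays fitted apart from the roots, 0 genes were called in shoots, although 1239 had an unadjusted p under 0.05 (limma).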

How the data were processed

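RNA of 12 samples was measured on Affymetrix arrays, 1 per sample. The authors deposited log2 values, from 0.339 to 14.1. The submitters' processing notes name Affymetrix Expression Console 1.3, while summarization, background correction and normalization are not given in the sources here. Groups and replicate numbers come from the sample titles. GEO's platform annotation pairs 16722 of the 38408 probe sets with 1 gene and 759 with several, and the remaining 20927 are unnamed here. The brightest probe set of a gene was kept, and locus codes came from RefSeq's TAIR10.1 gene table, which held 16411 of 16550 genes.

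Limma 3.58.1 in R 4.3.3 (lmFit, eBayes) was fitted to all 12 arrays as group means, which leaves 8 residual degrees of freedom, without filtering dim genes. Benjamini-Hochberg adjustment ran over the 16550 genes, with a threshold of 0.05. The number of arrays limits the precision. A planned test of the organ difference of AT5G19120 is not used, since it shares the shoot arrays that chose the gene. The code was tested on simulated data.

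AT5G19120, the lists and the tests were chosen with earlier results of these data known. Named genes are AT5G19120, 5 near relatives, called family members of largest change or else the 2 highest and 2 lowest, the 5 most correlated genes by each of 3 measures, and the 4 next genes in order of rise; genome neighbours, the list genes of uncertain membership and AT3G15450 among the uncalled genes were added after values were seen. Same-numbered arrays of different groups deviated together only weakly: 3 of 18 pairs exceeded a correlation of 0.1, and no pair of groups did so in all 3. All 18 correlations were positive, from 0.02 to 0.14. Over all genes the numbers were therefore not taken as pairs. For AT5G19120 itself, however, replicate 1 was highest in each group, and replicate 3 was lowest in all but estradiol shoots. With a replicate block the SE of its root difference was 0.108, against 0.176 without. What same-numbered arrays share was not tested.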

Additional observations from a re-analysis of the deposited data

How the results depend on the processing

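AT5G19120 kept its direction in shoots, in roots and between organs under every alternative run for each. The shoot difference ran from 1.17 to 1.47 without single arrays and from 1.19 to 1.39 under the other 10 settings, the root difference from 0.30 to 0.59 and from 0.43 to 0.51 (limma, adjusted p at least 0.547), and the organ difference from -0.46 to -0.30 and from -0.42 to -0.34. The call that chose the gene was less stable. It was lost in 8 of 12 fits without a single array and with the organs fitted apart, and AT5G19120 was the largest called rise in 3 of those 12 fits and 2 of the other 10 settings.

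The 27 genes called in shoots became 0 with organs fitted apart (1239 at an unadjusted p under 0.05), 91 with trend and robust settings, 7 with array weights, 59 with array medians subtracted, 84 among genes above the median level, 77 with 16 added to the linear value, and 0 to 19 without single arrays, with 0 without estradiol shoot replicate 1 or 3 (1572 and 1544 at an unadjusted p under 0.05). The split of 22 higher and 5 lower was 55 and 4 after medians were subtracted and 16 and 17 over all probe sets. With the replicate block there were 39 calls, and 20 with the block within each organ; the root difference of AT5G19120 had an adjusted p of 0.572 and 0.622. The 10642 genes called between organs became 6614 among genes above the median level, where fewer were tested, and 21839 over all probe sets. Family calls in shoots were 0 to 1 without single arrays. The cause was not tested for the others.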
